A study of Mus musculus with 6 samples.

Results

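Neutrophil granule genes encode the enzymes and antimicrobial proteins that a neutrophil makes in the bone marrow and stores before it leaves for the blood. They were followed here in tracheal mesenchyme before and after airway injury. The 10 genes were chosen by name, with earlier results of these data known, and sorted by the granule that holds their product. Mpo and Elane belong to primary granules, Camp, Ngp, Lcn2, Mmp8, Cd177 and Pglyrp1 to secondary granules and Mmp9 to tertiary granules, while Retnlg, a resistin-like gene of late neutrophils, was given no class. Of these 10 genes 9 were measured, by 10 of the 45037 probe sets tested, among 18193 genes in all. Retnlg is not analysed here.

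RNA came from 6 samples, 3 control and 3 taken 48 h post injury (hpi), each a pool of 4 tracheas from adult male C57Bl/6 mice for which the labels name no transgene. Injury was a 4 h inhalation of SO2 at 500 ppm, which kills the luminal cells of the airway epithelium. The labels call the control mice normal and do not say whether they sat in the chamber. In both groups the epithelium was peeled off after a dispase digest and everything that remained was used. The samples thus hold fibroblasts, cartilage, muscle, vessels, glands and resident or incoming blood cells, with any surface epithelium left behind. Epithelial samples of the study were depleted of leukocytes, whereas no such step is described for mesenchyme. Mesenchymal markers were bright in every sample, with a mean over 11 genes of 12.29 to 12.61 on the log2 scale. Airway secretory and gland markers were bright as well, with a mean over 10 genes of 11.57 to 12.37 in controls and 10.06 to 12.04 at 48 hpi. Basal cell markers had means over 6 genes of 6.56 to 7.34 and 6.80 to 7.61.

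Granule genes are switched on in sequence as a neutrophil matures. Primary granule genes are transcribed at the promyelocyte stage, secondary granule genes at the myelocyte and metamyelocyte stages and tertiary granule genes later still, and for most of them transcription has stopped by the time the cell circulates. A mature neutrophil therefore carries the proteins of all classes but little mRNA of the early ones. Some of these genes are also used elsewhere: airway epithelium and glands make Lcn2, Pglyrp1 and lactoferrin, and macrophages make Mmp9. In bulk tissue, fewer cells of a type and less RNA per cell cannot be told apart.

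Promoter windows are shown for Lcn2, Cd177 and Mmp8, the secondary granule members with the largest positive differences, and for Ngp, a gene of the same granule class that was lower in all 3 injured samples. Each is the 250 bases before the RefSeq start site (GRCm38.p6), written 5′ to 3′ on the strand of the gene. Capitals mark a C/EBP-type motif, TTGCNNAA, and an ETS-type motif, GAGGAA, read on both strands. C/EBP factors and the ETS factor PU.1 act in granulocyte development. Neither motif overlapped the other in these windows.

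Lcn2, chr2:32387740-32387989, minus strand: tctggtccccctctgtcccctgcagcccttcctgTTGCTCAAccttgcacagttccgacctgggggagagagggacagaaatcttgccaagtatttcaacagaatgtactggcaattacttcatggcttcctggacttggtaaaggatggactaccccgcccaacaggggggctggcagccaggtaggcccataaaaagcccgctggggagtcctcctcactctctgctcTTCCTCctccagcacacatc
Cd177, chr7:24760312-24760561, minus strand: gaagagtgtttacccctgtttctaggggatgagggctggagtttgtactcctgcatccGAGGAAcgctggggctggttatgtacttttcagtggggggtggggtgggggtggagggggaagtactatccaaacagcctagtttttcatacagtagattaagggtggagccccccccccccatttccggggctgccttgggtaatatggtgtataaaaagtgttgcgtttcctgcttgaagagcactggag
Mmp8, chr9:7558179-7558428, plus strand: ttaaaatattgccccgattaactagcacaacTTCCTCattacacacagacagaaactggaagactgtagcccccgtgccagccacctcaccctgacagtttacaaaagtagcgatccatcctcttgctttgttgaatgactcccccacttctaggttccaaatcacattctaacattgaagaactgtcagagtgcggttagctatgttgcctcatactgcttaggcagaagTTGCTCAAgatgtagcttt
Ngp, chr9:110419558-110419807, plus strand: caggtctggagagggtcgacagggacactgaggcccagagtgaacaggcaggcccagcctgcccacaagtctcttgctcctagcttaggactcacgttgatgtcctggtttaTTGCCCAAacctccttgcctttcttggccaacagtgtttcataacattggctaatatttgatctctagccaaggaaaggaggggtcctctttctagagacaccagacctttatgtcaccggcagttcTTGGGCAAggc

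Lcn2 and Mmp8 each held 1 C/EBP-type match, 216 and 19 bases before the start, and both read TTGCTCAA. Ngp held 2 such matches, and Cd177 held 0. An ETS-type match was found in Lcn2, Cd177 and Mmp8 but not in Ngp. A promoter window was available for 9 of the 10 listed members, Retnlg included and Mmp9 not. Of these 9 members 4 had the C/EBP-type motif, the fourth being Retnlg, and 6 had the ETS-type motif. The others with the ETS-type motif were Pglyrp1, Mpo and Elane, with log2 fold changes of -0.97, -0.14 and -0.014. No measured member, with or without a motif, passed the threshold in the main comparison given below. Over all 32851 promoter windows of the same length, the shares were 9.56% and 23.3%. These matches describe letters only.

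In the comparison of 48 hpi with control, 0 of the 9 members rose and 0 fell at an adjusted p of 0.05 in limma, where 4.97% of all genes rose and 1.24% fell. At an unadjusted p of 0.05, 3 members were higher (Lcn2, Cd177 and Mmp9) and 1 was lower (Ngp), against 14.6% and 9.29% of all genes. The same 3 genes had all their injured values above all control values, and Ngp had all of them below, which 17.2% and 13.1% of all genes did. An equal-variance test without moderation called 0 members after adjustment, and at an unadjusted p of 0.05 it put 0 higher and 1 lower. Samples with the same replicate number deviated together, those of replicate 1 the most, although the labels state no pairing. With the replicate number as a block, Lcn2, Cd177 and Mmp9 passed as higher and 0 members passed as lower, where 8.77% of all genes rose and 4.64% fell.

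**Figure D1:**
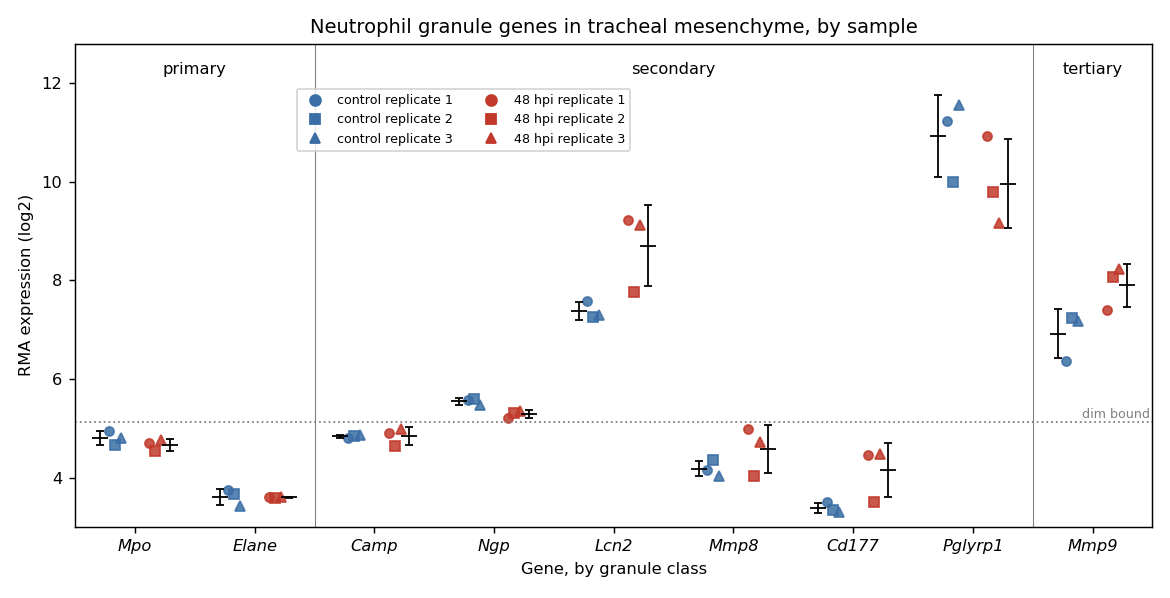
Log2 RMA values (vertical axis) of the 9 measured members (horizontal axis, grouped by granule class) in each control and 48 hpi sample, with the mean ± SD of 3 samples as bars and the dim bound of 5.14 as a dotted line. Mpo, Elane, Camp, Mmp8 and Cd177 lie below the bound, and Lcn2 and Mmp9 are the members above it with all injured values over all control values.

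Levels of 5 members were no brighter than those of genes foreign to this tissue. A dim bound of 5.14 was set at the 90th percentile of 35 probe sets for 25 genes of retina, testis, pancreas, liver, kidney and other organs, whose means ran from 2.35 to 6.53. Means of Mpo, Elane, Camp, Mmp8 and Cd177 lay below this bound in both groups. Fold changes of such genes are compressed toward 0 by the array's background, so an upper limit on their change cannot be read from them. Levels of different genes are not compared, since each probe set has its own brightness.

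Among primary granule genes, Mpo, the myeloperoxidase that makes hypochlorous acid, was 4.94, 4.66 and 4.80 in control replicates 1, 2 and 3 and 4.69, 4.53 and 4.76 at 48 hpi. The groups overlapped, and the log2 fold change was -0.14 with a 95% interval from -0.40 to 0.11 (adjusted p = 0.527). Elane, the neutrophil elastase gene, read 3.74, 3.67 and 3.43 in controls. At 48 hpi it was 3.61, 3.58 and 3.61, within the range of the controls. Its log2 fold change was -0.014 (95% interval -0.26 to 0.23, adjusted p = 0.961), and its sign turned with the scaling of the arrays. No sample of either group stood out for these early genes.

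Camp and Ngp, both of secondary granules, did not pass the test. Camp, which encodes the cathelicidin precursor, was 4.81, 4.83 and 4.86 in controls and 4.91, 4.64 and 4.98 at 48 hpi. Its injured values lay on both sides of the controls, for a log2 fold change of 0.01 (95% interval -0.25 to 0.26, adjusted p = 0.986). Ngp, the neutrophilic granule protein related to cystatins, was 5.57, 5.60 and 5.47 in controls. Its injured samples read 5.21, 5.30 and 5.36, all below the lowest control, although the difference was small, at -0.26 (95% interval -0.46 to -0.05, adjusted p = 0.167). With the replicate block Ngp did not pass either (adjusted p = 0.131). Its means of 5.55 in controls and 5.29 at 48 hpi were little above the dim bound of 5.14. Both lay within the range of the genes foreign to this tissue.

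Lcn2, the siderophore-binding lipocalin that withholds iron from bacteria, had the largest difference of the members. It was 7.59, 7.26 and 7.31 in controls and 9.24, 7.76 and 9.14 at 48 hpi. Injured replicates 1 and 3 stood far above every control, whereas replicate 2 was 0.50 above the control of its own number. The mean went from 7.38 ± 0.18 to 8.71 ± 0.83 (SD, n = 3), a log2 difference of 1.32 ± 0.37 (SE) with an adjusted p of 0.106. It passed with the replicate block (adjusted p = 0.0196) and without 48 hpi replicate 2 (0.00317), but not without any other single sample (0.154 to 0.303).

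Cd177, the surface antigen kept in the membrane of secondary granules, and Mmp8, the neutrophil collagenase, had the same low sample. Cd177 was 3.50, 3.34 and 3.30 in controls and 4.46, 3.51 and 4.48 at 48 hpi. Injured replicate 2 thus exceeded the highest control by a margin well inside the spread of the controls. The log2 fold change of Cd177 was 0.77 ± 0.25 (SE, adjusted p = 0.157), which passed with the replicate block (0.0458) and without 48 hpi replicate 2 (0.00702). Both its group means lay below the dim bound. Mmp8 was 4.16, 4.35 and 4.04 in controls and 4.98, 4.03 and 4.72 at 48 hpi. Injured replicate 2 was the lowest of all 6 samples, and the other injured samples were the highest. The log2 fold change of Mmp8 was 0.39 ± 0.23 (SE, 95% interval -0.16 to 0.95, adjusted p = 0.419), with 0.289 with the block and 0.0713 without 48 hpi replicate 2.

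**Figure D2:**
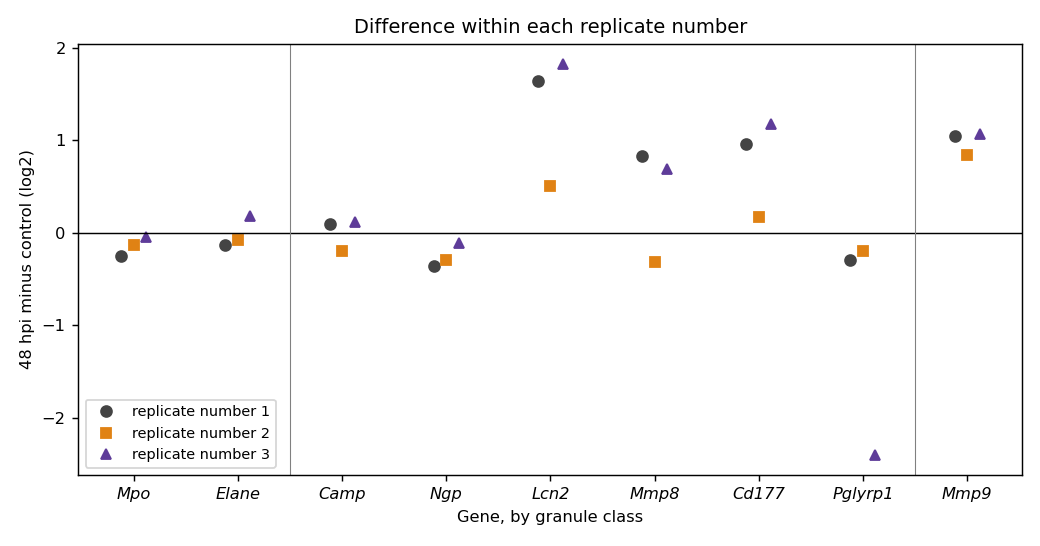
Difference on the log2 scale between the 48 hpi and the control sample of the same replicate number (vertical axis) for each member (horizontal axis, grouped by granule class), with 1 symbol per replicate number. Mmp9 sits between 0.84 and 1.06 in all 3, Lcn2, Cd177 and Mmp8 are lowest in number 2, and Pglyrp1 is at -2.41 in number 3 alone.

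Low values in 48 hpi replicate 2 were common beyond these genes. This sample was the lowest of the 3 injured samples for 625 of the 904 genes that rose (69.1%) and for 40.3% of all genes. Among the members it was the lowest injured sample in 6 of 9, namely Lcn2, Cd177, Mmp8, Mpo, Elane and Camp. It was also the lowest for Chil3, with 10.21, 7.97 and 11.25. The labels give no time, weight or dose for single pools that would set this sample apart. Whether the low values of Lcn2, Cd177 and Mmp8 and those of the other genes share a source was not tested.

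Mmp9, the gelatinase of tertiary granules, differed by nearly the same amount in each replicate number. Its brighter probe set read 6.36, 7.24 and 7.17 in controls and 7.41, 8.08 and 8.23 at 48 hpi. All 3 injured values exceeded all 3 controls, and the differences by replicate number were 1.05, 0.84 and 1.06. Because replicate 1 was low in both groups, the difference of 0.98 ± 0.29 (SE) had an adjusted p of 0.123 without the block and 0.00178 with it. The dimmer probe set went from 5.39, 6.01 and 5.99 to 6.62, 6.94 and 7.21. It gave a log2 fold change of 1.13 ± 0.21 (SE), past the threshold at an adjusted p of 0.0332. With the median of both probe sets, Mmp9 was the 1 member to pass (adjusted p = 0.0428), where 5.62% of all genes rose and 1.52% fell. Mmp9 thus stood on either side of the threshold depending on the probe set, with the same direction in both.

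Pglyrp1, a peptidoglycan-binding antibacterial protein, was the bright member with the widest spread. Controls read 11.23, 9.997 and 11.56 and injured samples 10.94, 9.80 and 9.16. The groups overlapped, and the difference of -0.97 ± 0.53 (SE, 95% interval -2.21 to 0.28, adjusted p = 0.383) came mostly from replicate number 3, where it was -2.41. Differences in numbers 1 and 2 were -0.29 and -0.19. The mean of the 10 secretory and gland markers was 12.37, 11.57 and 12.35 in controls and 12.04, 10.86 and 10.06 at 48 hpi, so that control replicate 2 was the lowest control and 48 hpi replicate 3 the lowest injured sample in both. All 10 of these markers lay below 0, with a median of -1.06, and 0 passed the threshold, while at an unadjusted p of 0.05 limma put 4 lower and the equal-variance test 0. Among the brightest, Scgb3a1 was at -0.28, Bpifa1 at -1.24 and Dmbt1 at -1.10. With the replicate block 2 passed as lower, Scgb1a1 and Scgb3a2, named after their values were seen. Ltf, the lactoferrin gene of secondary granules and of glands, was 13.68, 13.48 and 13.81 in controls and 13.43, 12.87 and 12.42 at 48 hpi (log2 -0.75 ± 0.24, SE, adjusted p = 0.149, and 0.0445 without 48 hpi replicate 1). The part of secretory and gland cells in the values of Pglyrp1 and Ltf was not tested.

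**Figure D3:**
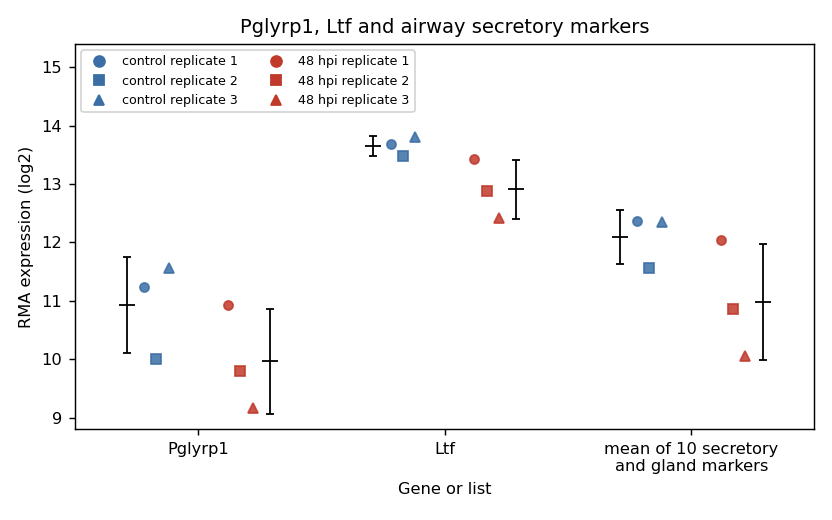
Log2 RMA values (vertical axis) of Pglyrp1, Ltf and the mean of 10 airway secretory and gland markers (horizontal axis) in each control and 48 hpi sample, with the mean ± SD of 3 samples as bars. In all of them 48 hpi replicate 3 is the lowest sample among the injured and control replicate 2 the lowest among the controls.

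Other genes listed under the same classes were counted as well. They were listed with earlier results of these data known, so their counts are no blind sample to set against the shares of all genes. A place in a list does not mean that the product is stored in that granule, and the tertiary list includes secretory vesicle genes. Of 21 measured, 11 rose and 0 fell, where 4.97% of all genes rose and 1.24% fell. At an unadjusted p of 0.05 limma put 12 higher and 2 lower, against 14.6% and 9.29% of all genes. The equal-variance test put 12 higher and 0 lower. With the members added, 2 of 6 primary granule genes rose (median change 0.06 on the log2 scale), as did 6 of 18 secondary (median 0.58) and 3 of 6 tertiary granule genes (median 1.18). With the replicate block, 2 primary, 9 secondary and 4 tertiary granule genes passed as higher, where 8.77% of all genes did. The added ones were Lcn2, Cd177, Mmp9 and Ifitm6, an interferon-induced membrane protein gene (1.81 ± 0.41, adjusted p = 0.0579, and 0.00493 with the block), which is named after its values were seen. The median over all genes was -0.01. Medians of the members alone were -0.08 for primary and 0.20 for secondary granule genes, beside 0.98 for Mmp9. The order of these medians is a description, and the difference between classes was not tested. In both groups 4 of the 6 primary and 6 of the 18 secondary granule genes were below the dim bound, and 0 of the 6 tertiary ones were.

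Within the primary class, Prtn3 and Serpinb1a rose. Prtn3, the proteinase 3 gene, lies next to Elane with 0 genes between them in the RefSeq table. It was 4.92, 4.51 and 4.56 in controls and 5.65, 5.43 and 5.68 at 48 hpi. This was a 1.89-fold rise (log2 0.92 ± 0.13, SE, adjusted p = 0.0143) from a control mean below the dim bound. The 48 hpi mean of 5.58 was above the bound but within the range of the genes foreign to this tissue. All injured values of Prtn3 exceeded all controls, unlike those of Elane. Its call held without control replicate 1 or 48 hpi replicate 2, and was lost without control replicate 2 (0.0543), control replicate 3 (0.0642), 48 hpi replicate 1 (0.0510) or 48 hpi replicate 3 (0.0750). Serpinb1a, an inhibitor of neutrophil serine proteases that other cells make too, rose by 1.30 ± 0.22 (adjusted p = 0.0248), with calls held only without control replicate 1 or control replicate 3 and an adjusted p up to 0.104 otherwise. Ctsg, the cathepsin G gene, was at 0.14 (adjusted p = 0.503) and dim in both groups. Ms4a3, named after its values were seen, was at -0.22 (adjusted p = 0.391) and dim as well.

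Secondary granule genes rose in 6 of the 12 cases outside the members. Beside Ltf and Ifitm6, those that did not pass were Olfm4 (log2 0.035), Fcnb (0.085), Itgb2l (0.15) and Ceacam10 (0.18). These are named after their values were seen, and Olfm4, Fcnb and Ceacam10 were below the dim bound in both groups. Chil3, a chitinase-like protein of neutrophil precursors and macrophages, rose 55.3-fold (log2 5.79 ± 0.73, SE, adjusted p = 0.00820), a poorly fixed ratio since its control mean of 4.02 was below the dim bound. Itgam and Itgb2, the subunits of the complement receptor Mac-1 held in secondary granule membranes, rose by 2.88 ± 0.17 and 1.76 ± 0.25. Both subunits of the cytochrome that produces superoxide rose as well, Cyba by 1.02 ± 0.13 and Cybb by 0.94 ± 0.18. Hp, the haptoglobin gene of neutrophils and of the acute phase response, was 8.20, 9.27 and 8.06 in controls and 10.35, 10.44 and 10.51 at 48 hpi, a rise of 1.92 ± 0.30 (adjusted p = 0.0175). Calls of Chil3, Itgam and Cyba held in each of the 6 fits without 1 sample, and that of Itgb2 in all but the one without 48 hpi replicate 3 (0.0551). Hp passed only without control replicate 2 and Cybb only without control replicate 1, and the others reached an adjusted p of 0.0854 and 0.129.

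Tertiary granule and secretory vesicle genes rose in 3 of the 5 cases outside the members. Mme (log2 -0.26) and Alpl (0.41) did not pass and are named after their values were seen. Fpr2, a formyl peptide receptor, rose by 2.16 ± 0.37, the protease gene Adam8 by 1.75 ± 0.35 and Slc11a1, a metal transporter of phagocyte granules, by 1.37 ± 0.14. Slc11a1 held in each fit without 1 sample, whereas Fpr2 and Adam8 passed only when 48 hpi replicate 2 was left out and otherwise reached 0.0942 and 0.129.

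**Figure D4:**
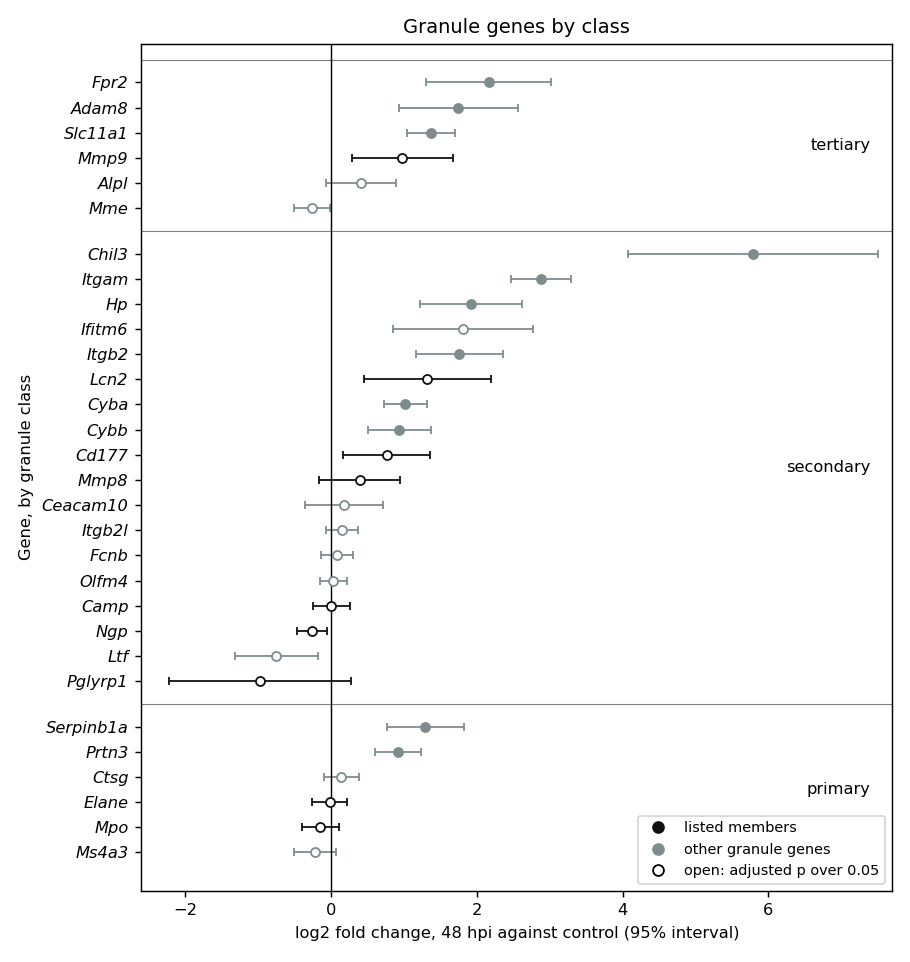
Log2 fold change at 48 hpi against control with its 95% interval (horizontal axis) for 30 granule genes (vertical axis, grouped by class), with members in black, other granule genes in grey and filled points for adjusted p under 0.05. Filled points number 2 of 6 primary, 6 of 18 secondary and 3 of 6 tertiary granule genes, and all members are open.

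Genes of a separate list for mature neutrophils rose in 8 of 18 cases, with a median of 0.98, and in 11 with the replicate block. Over all genes the shares were 4.97% and 8.77%. This list too was chosen with earlier results of these data known. A place in it does not mean that only neutrophils express the gene, and the part of macrophages in these rises was not tested. In both groups 5 of the 18 lay below the dim bound, and they are named after their values were seen. Of these, Cxcr2, Padi4, Asprv1 and Acod1 lay between 0.13 and 0.30 and did not pass. Stfa2l1 was at 1.82 (adjusted p = 0.0830, and 0.00853 with the block). The calprotectin genes S100a8 (4.27 ± 0.77) and S100a9 (4.13 ± 0.72), the C-type lectins Clec4d (3.73 ± 0.28) and Clec4e (2.76 ± 0.34) and the cytokine gene Il1b (2.34 ± 0.22) had the largest changes. Control means of Clec4d and Clec4e lay below the dim bound, as did those of Itgam and Fpr2 among the granule genes. Ly6g, the surface marker of mouse neutrophils, is not analysed here. In this list 1 gene fell, G0s2, an inhibitor of lipolysis that many cells make (-0.56 ± 0.12), named after its values were seen. Its call was lost without any 1 sample (adjusted p from 0.0588 to 0.157). S100a8 kept its call only without control replicate 1 or 2 and otherwise reached an adjusted p of 0.126. S100a9 lost its call without control replicate 3 (0.0653), 48 hpi replicate 1 (0.0733) or 48 hpi replicate 3 (0.115), whereas Clec4d, Clec4e and Il1b held in each fit without 1 sample. Of 7 transcription factor genes of the granulocyte line 1 rose, Spi1, which encodes PU.1 in all myeloid cells (1.13 ± 0.13), also named after its values were seen. Gfi1, a repressor needed for neutrophil differentiation, was at 3.06 ± 0.11 in controls and 3.04 ± 0.07 at 48 hpi (SD, n = 3), below the dim bound, and Cebpe is not analysed here.

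Markers of other blood cells moved beside these genes in part. Of 11 macrophage markers 10 rose, with a median of 1.27 and a list mean of 7.58 to 7.77 in controls and 8.93 to 9.26 at 48 hpi. The brightest, Csf1r and C1qa, rose by 0.93 ± 0.12 and 1.24 ± 0.14. Red cell markers, which would show blood left in the tissue, had a list mean of 4.47 to 4.59 in controls and 4.42 to 4.49 at 48 hpi over 4 genes, of which 3 were below the dim bound in both groups. There were 0 calls among these, and before adjustment limma put 0 lower at a p of 0.05 and the equal-variance test 1. Platelet markers had means of 6.11 to 6.32 and 6.57 to 6.76 over 6 genes, and 1 of them rose, Pf4 (2.36 ± 0.23), which macrophages can make too. Lymphocyte markers had means of 4.50 to 4.87 and 4.40 to 4.79 over 4 genes, with 0 calls, also 0 at an unadjusted p of 0.05 in limma and in the equal-variance test. The part of macrophages in the rises of shared granule genes was not tested.

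Acute phase and NF-kappaB targets, a group that often includes Lcn2, rose in 2 of 7 cases. Ptx3 rose by 2.55 ± 0.31 and Saa3, a serum amyloid gene of inflamed tissue, by 2.38 ± 0.29, both in each fit without 1 sample. Il6, an inducer of acute phase genes, was at 1.77 ± 1.01 and did not pass (adjusted p = 0.401). These 3 are the largest differences of the list, and the other 4 genes, Socs3, Cp, Nfkbiz and Steap4, lay between -0.25 and 0.35 and did not pass. Of the 7 genes 4 were lowest in 48 hpi replicate 2 among the injured samples, Ptx3 and Saa3 among them, whereas Il6 was lowest in replicate 3 and Nfkbiz was highest in replicate 2.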

How the data were processed

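RNA of 6 pooled mesenchyme samples was hybridized by the authors to 1 Affymetrix whole-genome mouse array each. The deposited values are log2 expression per probe set made with RMA, a method that subtracts background, gives the arrays 1 shared distribution and combines the probes of a set. The submitters' processing notes name Partek 6.5, Affymetrix Expression Console 1.1 and RMA. Such scaling hides a shift of most genes together, and folds of dim genes are understated. For arrays, their number limits the precision.

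Of 45101 probe sets 64 controls were left out. In the platform annotation 34945 probe sets had 1 symbol, 932 had several and 9160 had none. Of the first, 34741 were matched by Entrez identifier to RefSeq (GRCm38.p6). A gene took its brightest probe set by the mean over all arrays.

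Groups were compared with limma 3.58.1 in R 4.3.3 (lmFit, eBayes, two-sided), in a model of group alone, and p-values were adjusted (Benjamini-Hochberg) over 45037 probe sets. Residual degrees of freedom were 4, to which 3.21 were added. Errors of fold changes are SE and the intervals use these degrees of freedom. Replicates are pools of mice, so p-values measure the spread between pools. The labels give replicate numbers but state no pairing, so the numbers were checked for it. After removal of group means, same-numbered samples correlated at 0.62, 0.36 and 0.34, and unlike-numbered ones at -0.43 to 0.18. So few samples cannot establish pairing. Blocked values are given beside the others where they change the call of a named gene or a class count. The fit was tested on simulated data.

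The members and lists were chosen with earlier results of these data known, and no list was tested as a set. Named genes are the members, Prtn3, Ctsg and Ltf, called genes of the other granule lists, the 5 largest changes among called mature neutrophil genes, Cebpe, Gfi1 and Ly6g, the brightest of the other lists and, for acute phase genes, the 3 largest differences. Exceptions are stated. Of 168 listed genes 151 were measured.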

Additional observations from a re-analysis of the deposited data

How the results depend on the processing

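With the replicate number as a block, the genes that rose went from 904 to 1596 and those that fell from 226 to 845, and the members that passed as higher from 0 to 3. An equal-variance test called 41 rises and 4 falls, and 0 primary, 0 secondary and 0 tertiary granule genes, against 2, 6 and 3. The median of probe sets called 1 member, Mmp9. Leaving out 1 sample, or both samples of a replicate number, gave 132 to 647 rises and 2 to 98 falls over all genes, 0 to 2 members higher, 0 to 2 primary granule genes, 1 to 7 secondary and 0 to 3 tertiary granule genes higher, and 0 to 1 secondary granule genes lower. The sign of Elane, which was never called, turned with arrays centred on their medians (0.017), with a second quantile normalization (0.028) and in fits without samples (-0.11 to 0.051), and that of Camp in fits without samples (-0.064 to 0.11). Over the 9 members and the 13 other granule genes named by rule, under 16 alternatives, 268 of 346 values kept direction and side of the threshold, 58 lost a call, 9 gained one and 11 changed sign. Dim signal limits Mpo, Elane, Camp, Mmp8 and Cd177, and Ngp was little above the dim bound.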

Other observations

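Marker genes of other granulocytes, not only those of granule proteins, were measured as well. Those of eosinophils, with 6 genes of which Prg3 and Prg2, the genes of the major basic proteins, were the brightest, had 0 calls and lay below the dim bound in both groups without exception, with list means of 3.33 to 3.44 in controls and 3.38 to 3.58 at 48 hpi. At an unadjusted p of 0.05 limma put 1 of them higher, as did the equal-variance test. It was Siglecf (0.49, adjusted p = 0.108 in limma), named after its values were seen. Mast cell genes had 0 calls among 6 without the replicate block, at which limma and the equal-variance test also put 0 higher or lower at an unadjusted p of 0.05, and 2 higher with it. These were Cpa3, the mast cell carboxypeptidase, and the chymase gene Mcpt4, both named after their values were seen. Without the block Cpa3 was at 1.15 ± 0.49 (SE, adjusted p = 0.267) and Mcpt4 at 0.71 ± 0.32 (0.287). With it their adjusted p was 0.0489 and 0.0212. Control values of Cpa3 were 6.04, 7.76 and 5.74, so that replicate 2 stood high, while injured samples read 7.78, 7.91 and 7.30.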
